A study of Mus musculus with 6 samples.

Results

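The genes described here are 10 core genes of the actin cytoskeleton: the cytoplasmic actins Actb and Actg1, the tropomyosins Tpm1, Tpm2, Tpm3 and Tpm4, the cofilins Cfl1 and Cfl2, and the profilins Pfn1 and Pfn2. They were chosen by name, as the rows of the count table with these symbols, and all 10 of the 24421 genes in that table were found and passed the filter on low counts in every comparison. The libraries hold RNA from whole mouse brain homogenate (input) or RNA pulled down from it with an antibody to the HA tag (IP), in the RiboTag design, where Cre recombinase switches on an HA-tagged form of the ribosomal protein Rpl22. Both genotypes carried the NG2CreERTM driver and Rpl22HA/+. The control mice had no floxed Ank3, and the AnkG icKO mice (inducible conditional knockout) also carried Ank3F/F, the floxed alleles of the ankyrin-G gene. All mice, controls included, were given tamoxifen at 100 mg/kg per day for 5 days at 8 weeks of age and were studied 1 month later. Each sample pooled 3 animals, and there were 2 input libraries, 1 of each genotype, and 4 IP libraries, 2 of each. NG2 is made by oligodendrocyte precursors and also by pericytes, so the driver is not limited to oligodendrocytes.

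Actin monomers polymerise into filaments that push the leading edge of a cell, shape its cortex and carry transport. Profilins bind monomers and hand them to the growing end of a filament, cofilins sever and disassemble older filaments, and tropomyosins lie along filaments and decide which other proteins may bind them. In oligodendrocytes, filament assembly drives the first extension and wrapping of processes, and disassembly of filaments accompanies the spreading of myelin membrane.

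The coding sequences of the families show how far reads could tell the genes apart. Actb and Actg1 encode proteins that are nearly the same and differ mainly at the amino end, and their coding sequences of 1125 bases each were 88.6% identical (GENCODE M21 transcripts, mm10). Actb lies at chr5:142903115-142906754 and Actg1 at chr11:120345690-120348542, both on the minus strand. The first 90 coding bases are shown because they hold the codons in which the actin isoforms differ. Capitals mark the 16 bases at which these stretches are unlike each other.
Actb: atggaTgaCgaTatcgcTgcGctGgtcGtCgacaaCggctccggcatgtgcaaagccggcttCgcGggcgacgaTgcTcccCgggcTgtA
Actg1: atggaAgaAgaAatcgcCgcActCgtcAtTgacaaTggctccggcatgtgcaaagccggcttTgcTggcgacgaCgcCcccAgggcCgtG
The longest identical run between the mRNAs of these actins was 62 bases, and 1.60% of the 50-base words of the Actb mRNA also occurred in that of another of the 10 genes. The other families were further apart, with 63.5% identity between Pfn1 and Pfn2, 72.5% between Cfl1 and Cfl2, and 65.9% to 76.6% among the tropomyosins. Copies elsewhere in the genome shared more sequence than these relatives did. Of the 50-base words of the principal mRNA, 62.4% for Tpm3 and 56.7% for Actg1 also occurred in annotated transcripts of other genes, mostly processed copies such as Tpm3-rs7 and Gm12715. The share was 14.2% for Actb, 12.1% for Tpm4 and 9.11% for Cfl1, and it was 0% for Tpm1, Tpm2, Cfl2, Pfn1 and Pfn2. The handling of reads with several matches is not given in the sources used here. The levels of Tpm3 and Actg1 are therefore the least certain.

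Actin genes are textbook targets of serum response factor (SRF), which binds a motif called the CArG box. In the 250 bases before the start site, RefSeq promoters (GRCm38.p6, the assembly of mm10) were found for 9 of the 10 genes by symbol, all but Actb. A CArG box stood in 1 of their 10 promoters, that of Actg1, against 1.47% of all 32851 promoters; the motif is its own reverse complement, so a match covers both strands. It is shown for Actg1, which on the TMM scale was lower in the icKO IP with 8 other genes of the group, in the 103 bases before the start of the GENCODE gene (chr11:120348543-120348645, minus strand). Capitals mark the box, which lies at base -43 to -34 from that start and at -90 to -81 from the RefSeq start, 47 bases further into the gene.
Actg1: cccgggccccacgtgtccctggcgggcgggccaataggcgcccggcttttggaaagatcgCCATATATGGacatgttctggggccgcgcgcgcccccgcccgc
The match describes these letters only. The same search found a box for the muscle actins Acta1 and Actc1 and for Srf, but none for the smooth muscle actin Acta2. Sites of another form or further away were not searched for. Srf itself was at 42.9 and 42.2 CPM in the IP of control mice and at 43.3 and 40.4 CPM in that of icKO mice, where CPM are read counts relative to library size with TMM scaling over 6 libraries. The inputs had 49.6 (control) and 59.6 CPM (icKO). The genotype difference of Srf in the IP was -0.02 on the log2 scale (adjusted p = 0.852, quasi-likelihood F test of edgeR, Benjamini-Hochberg).

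Total counts ran from 18968806 to 23930812, and 3 counts corresponded to 0.124 to 0.166 CPM. Ank3, counted over the whole gene and so only a weak check of the genotype labels, was at 1388 and 1359 CPM in the IPs of control mice and lower, at 1162 and 1167 CPM, in those of icKO mice. Against input, all 18 precursor markers and 22 of 25 mature oligodendrocyte markers were higher in the IP, and so were all 11 pericyte markers and 9 of 11 vascular smooth muscle markers. All 15 neuron, 12 astrocyte and 12 microglia markers were lower. The summed level of the neuron markers was 13132 CPM in the control input and still 3156 and 3199 CPM in the control IPs. It was 3633 and 3572 CPM in the icKO IPs. None of the 6 libraries is an IP from mice without the HA tag, so RNA carried over from untagged cells was not measured. The summed level of the mature oligodendrocyte markers was 28533 and 28706 CPM in the IP of controls, against 17661 and 17557 CPM in that of icKO mice. Between genotypes in the IP, 7 of 15 neuron and 6 of 12 astrocyte markers were higher, and 2 and 1 lower. The titles call the IP replicates biological, and how the mice were divided among the pools is not stated.

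Actb was by far the most abundant of the 10 in every library, and together the genes took 0.354% (control) and 0.355% (icKO) of all input counts. Their part was 0.416% and 0.412% of the control IPs but 0.283% and 0.282% of the icKO IPs. In the control IPs the part of Actb was higher than in the inputs, while that of the other 9 genes summed was lower. Among these 9, Tpm2, Tpm4 and Pfn1 were higher in the control IPs. The other 9 genes together took 0.186% (control) and 0.187% (icKO) of the inputs, 0.149% and 0.148% of the control IPs and 0.107% and 0.106% of the icKO IPs. Per kilobase of the principal GENCODE transcript, which need not be the form these cells use, the control IP mean was 1368 CPM for Actb, followed by 235 CPM for Actg1, 181 CPM for Cfl1 and then Tpm1, with 96.2 and 98.9 CPM in its libraries. Pfn1 (68.2 CPM per kilobase), Pfn2 (49.0) and Tpm3 (47.7) came next in the control IP, and Tpm4 (30.1), Cfl2 (12.6) and Tpm2 (8.58) were lowest. The gap between Pfn2 and Tpm3 was within the range of the Tpm3 replicates. In the icKO IP the first 4 kept their order, and the values of Pfn1 (47.2 and 43.6 CPM per kilobase) and Tpm3 (45.3 and 45.1) overlapped. In the control input Pfn2 (104 CPM per kilobase) stood above Tpm3 (67.8) and Pfn1 (57.4), so that the order of the profilins was the reverse of that in the IP.

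**Figure D1:**
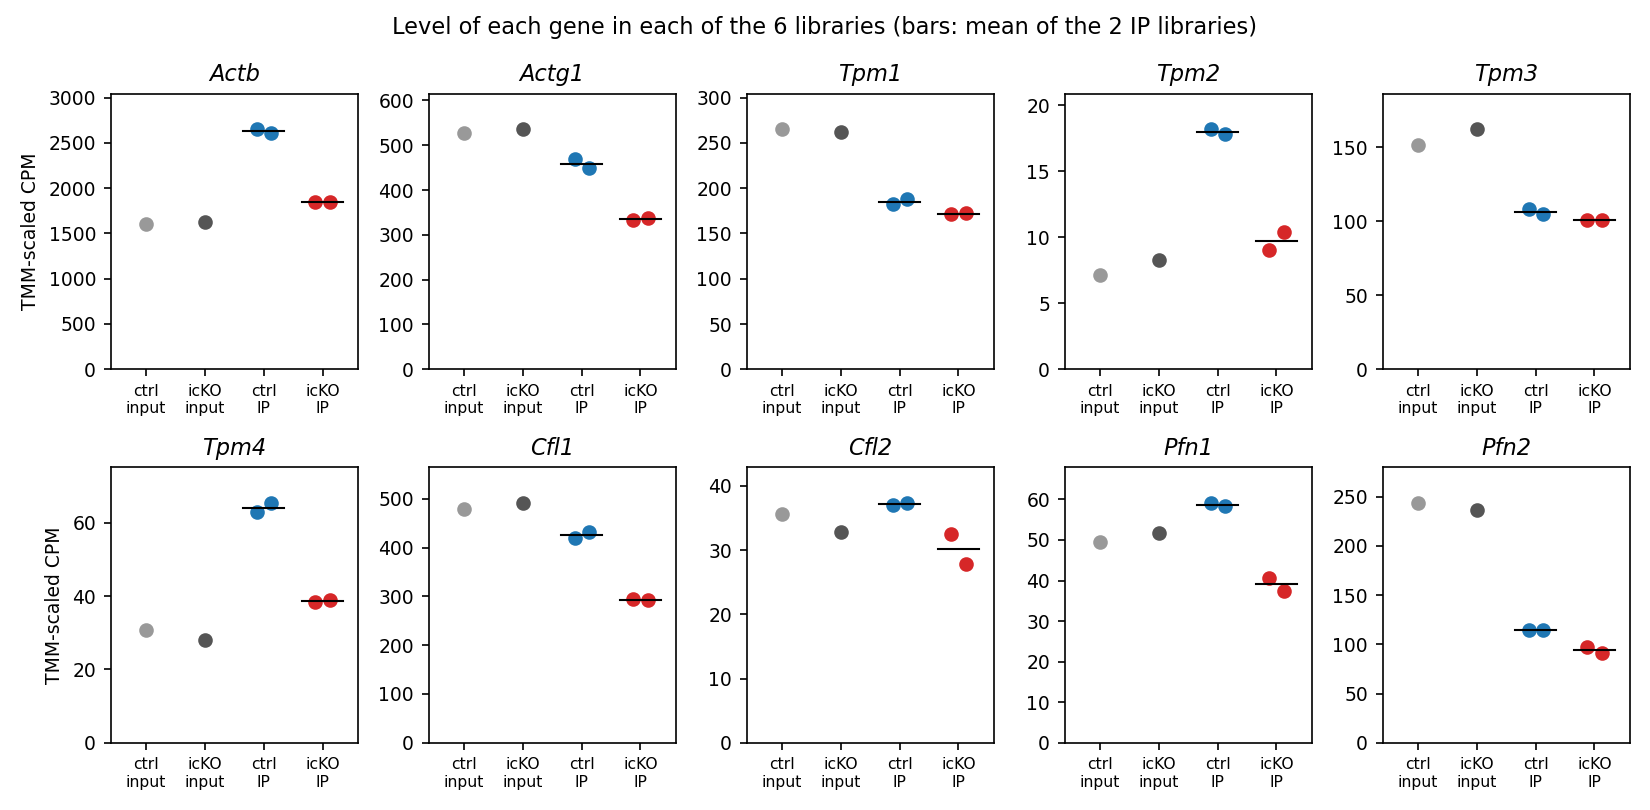
Level of each of the 10 genes (vertical axis, CPM with TMM scaling, each axis from 0) in the control input, icKO input, control IP and icKO IP libraries; points are libraries and horizontal bars the mean of the 2 IP libraries. The icKO IP points lie below the control IP points in all 10 panels on this scale, by the smallest proportion for Tpm1 and Tpm3, while scaling to mature oligodendrocyte markers puts the difference above 0 for all but Tpm2 and Tpm4.

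The first comparison asks which of these mRNAs the tagged ribosomes carry more or less of than the brain as a whole. In the control mice Actb, Tpm2, Tpm4 and Pfn1 were higher in the IP than in the input, Actg1, Cfl1, Tpm1, Tpm3 and Pfn2 were lower, and Cfl2 was not called. Of 15936 genes tested, 68.3% were called, and 34.4% were higher and 33.9% lower in the control IP, so that 4 and 5 of 10 are near those shares. Actins, tropomyosins and profilins each held genes on both sides. Each genotype has a lone input library, so within a genotype the IP pairs set the spread assumed for the input. The standard errors, p-values and calls of these fits therefore hold no measured spread between inputs.

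Among the actins, Actb rose and Actg1 fell relative to input. With both genotypes in the same fit, Actb was at a log2 difference of 0.43 ± 0.11 (SE, adjusted p = 0.00592). Actg1 was at -0.45 ± 0.10 (adjusted p = 0.00246) in that fit. For the control mice alone, the smaller standard errors and p-values given next hold no spread between inputs. Actb had 1607 CPM in the input of control mice, below its 2648 and 2607 CPM in their IPs, a log2 difference of 0.71 ± 0.02 (SE, adjusted p = 1.40e-21). Actg1 was at 527 CPM in the same input and at 470 and 448 CPM in the IPs (-0.20 ± 0.03, adjusted p = 5.30e-06). As a share of the counts of both actins, which needs no scaling, Actb made up 75.3% (control) and 75.2% (icKO) of the inputs. Its share of the IPs was 84.9% and 85.3% in control mice, with 84.8% and 84.5% in icKO mice. The exact 95% intervals, which cover counting error only, were at most 0.40 points to either side. The make-up of the actin pool thus differed between input and IP by about 10 points and between genotypes within the IP by less than 1 point.

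Tropomyosins parted in the same way, and the lone input limits their standard errors and p-values in the same way too. Tpm2, an isoform prominent in muscle and contractile cells, had 7.13 CPM in the input of control mice against 18.2 and 17.8 CPM in their IPs (1.33 ± 0.16, adjusted p = 1.22e-08). Tpm4, a non-muscle isoform, was at 30.7 CPM in that input and at 62.9 and 65.4 CPM in the IPs (1.06 ± 0.08, adjusted p = 1.19e-12). Tpm1 went the other way, from 265 CPM in the input to 183 and 188 CPM (-0.52 ± 0.04), as did Tpm3, from 151 CPM to 108 and 105 CPM (-0.51 ± 0.05). Of the tropomyosin counts, Tpm4 took 6.77% in the input of control mice but 16.9% and 17.4% in their IPs, and Tpm2 took 1.57% against 4.89% and 4.74%.

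Of the profilins, Pfn2, the form most abundant in brain, had the lowest IP to input ratio of the group. The broadly made Pfn1 did not fall in the control mice. For profilins and cofilins too, the standard errors and p-values hold no spread between inputs. Pfn2 had 244 CPM in the input of control mice but 115 CPM in both of their IPs (-1.09 ± 0.05, adjusted p = 2.23e-19). Pfn1 was at 49.4 CPM in that input and at 59.1 and 58.4 CPM in the IPs (0.25 ± 0.08, adjusted p = 0.00484, and 0.0867 in DESeq2, within a range of 0.00146 to 0.0867 over the alternatives). The share of Pfn1 in the profilin counts was 16.9% in the input and 34.0% and 33.7% in the control IPs. Cfl1, the main non-muscle cofilin, was at 478 CPM in the input and at 420 and 432 CPM in the IPs (-0.17 ± 0.03, adjusted p = 5.12e-05). Cfl2, the cofilin typical of muscle, was at 35.6 CPM in the input and at 36.9 and 37.3 CPM in the IPs (0.06 ± 0.09, adjusted p = 0.597).

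**Figure D2:**
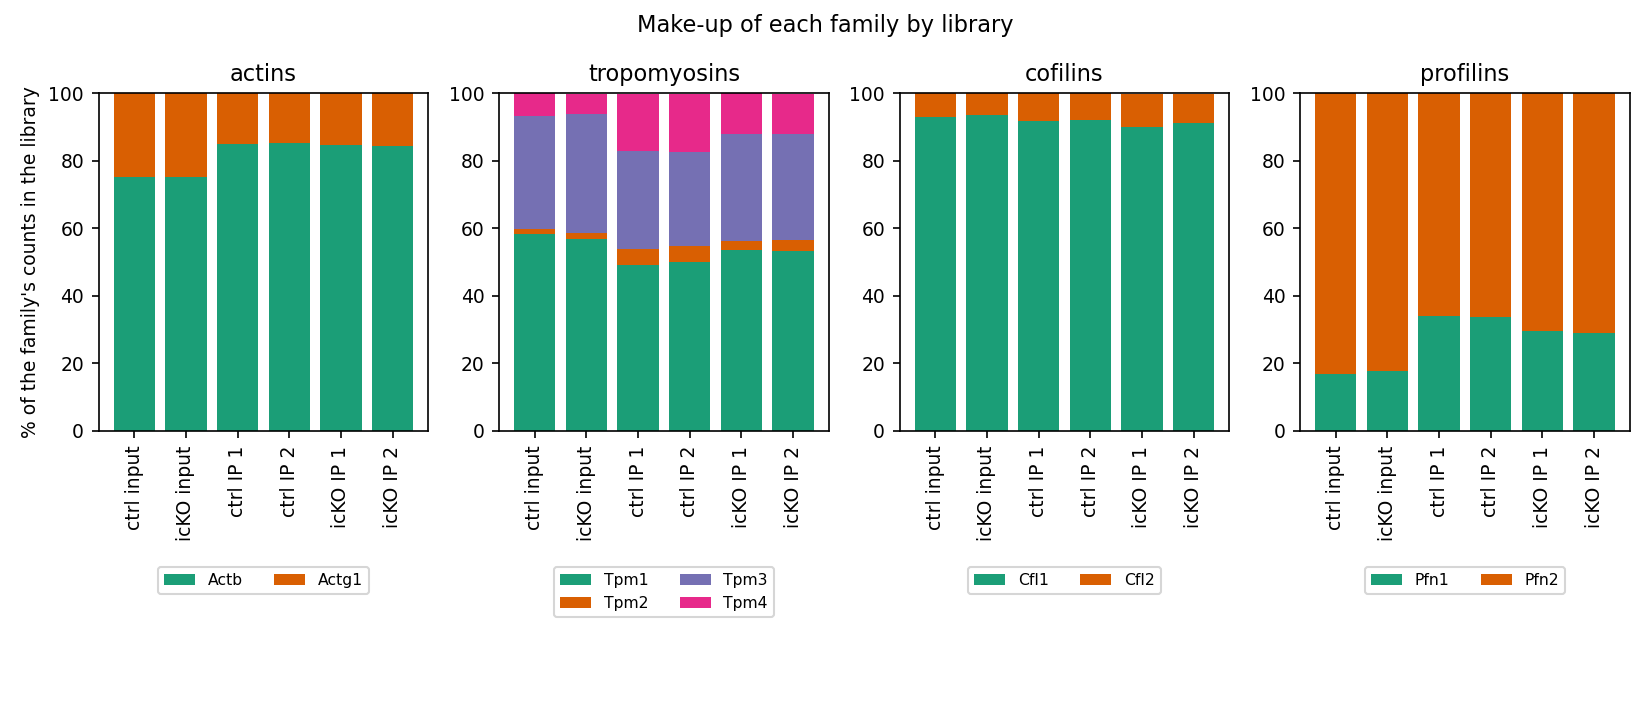
Percentage of each family's counts taken by each of its genes (vertical axis, 0 to 100%) in each of the 6 libraries. Actb, Tpm2, Tpm4 and Pfn1 take larger shares in the 4 IP libraries than in the 2 inputs, and in the icKO IPs the shares of Tpm4 (12.0% and 12.1%) and Pfn1 (29.5% and 29.1%) lie between those of the input and the control IP.

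In the icKO mice 2 of the 10 genes were higher in the IP than in the input and 6 were lower, and Pfn1 stood on the other side than in control mice. Actb (0.19 ± 0.02) and Tpm4 (0.47 ± 0.09) were still higher in the IP than in the input, Tpm2 was at 0.23 ± 0.17 (adjusted p = 0.227), and Cfl2 at -0.12 ± 0.10 (adjusted p = 0.302). Actg1 (-0.67), Cfl1 (-0.74), Tpm1 (-0.61), Tpm3 (-0.68), Pfn1 (-0.40) and Pfn2 (-1.33) were lower. Of all 15936 genes 69.4% were called, with 34.7% higher and 34.8% lower in the icKO IP. With both genotypes in the same fit, 3 of the 10 were higher and 5 lower, where 70.0% of 15451 genes were called (34.8% higher and 35.1% lower). In that fit Tpm2 was at 0.78 ± 0.22 (adjusted p = 0.00916), Tpm4 at 0.76 ± 0.12 (adjusted p = 0.000327) and Pfn1 at -0.09 ± 0.13 (adjusted p = 0.572). Without the control input Tpm2 lost its call there (0.23, adjusted p = 0.226, range over the alternatives 3.66e-09 to 0.226) and Pfn1 became lower (-0.41), and without the icKO input Pfn1 became higher (0.25).

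**Figure D3:**
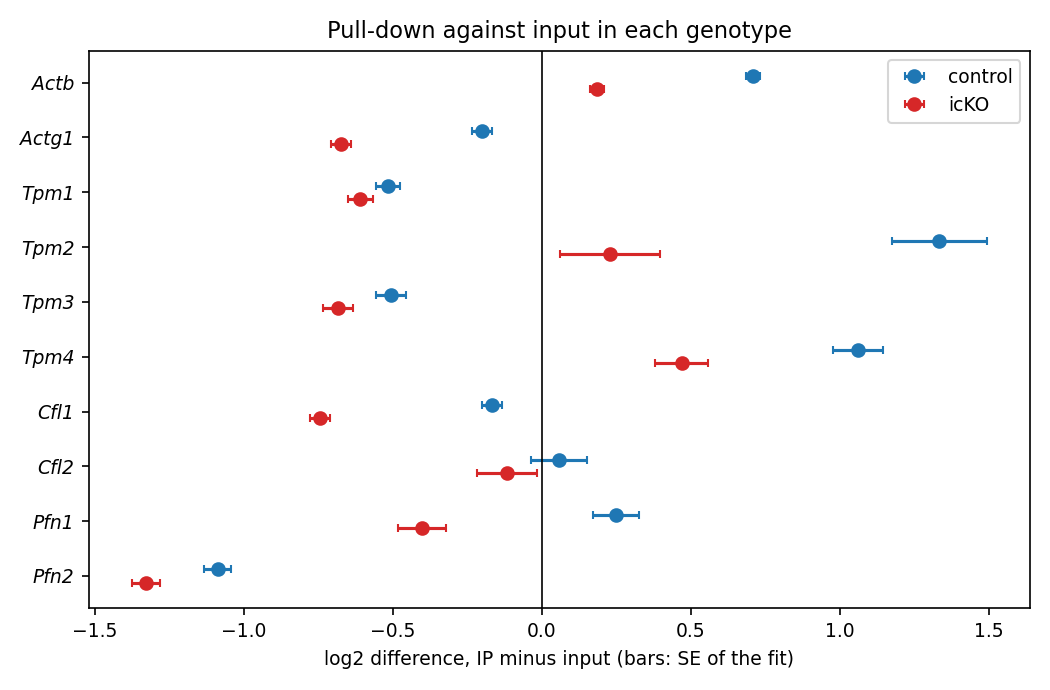
Log2 difference between IP and input (horizontal axis) for each gene, in control (blue) and icKO (red) mice; bars are standard errors of the fit, in which the IP pairs set the spread assumed for each lone input. The red point lies to the left of the blue point for all 10 genes, by 0.09 for Tpm1 and by 1.11 for Tpm2.

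The second comparison asks how these mRNAs differ in the IP between icKO and control mice. On the TMM scale 9 of the 10 were lower in the icKO IP and 0 higher, with Tpm3 not called, and the median log2 difference was -0.48. Of 15069 genes tested 47.2% were called and 25.2% were lower, with a median of 0.00 over all of them. In all 10 genes, the uncalled Tpm3 included, the 2 icKO values lay below the 2 control values. The share of all tested genes with such a gap was not computed, so this count has no base beside it. Scaled to mature oligodendrocyte markers, which moves the median of all genes to 0.69, 7 of the 10 were called higher and 0 lower. With that scaling 12747 of all 15069 genes tested were called higher and 112 lower. All 10 genes were still under that all-gene median by 0.08 to 0.88. With library totals, which moves the median of all genes by less than 0.1, 2409 of 7388 called genes were higher, against 3326 of 7119 with TMM. In bulk RNA, fewer cells of a type and less RNA per cell cannot be told apart.

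Both actins fell by similar amounts on the TMM scale, which turned to a rise when libraries were scaled to mature oligodendrocyte markers. Actb went from 2648 and 2607 CPM in the control IPs to 1851 and 1847 CPM in the icKO IPs, a log2 difference of -0.50 ± 0.02 (SE, 1.42-fold lower, adjusted p = 4.85e-20), with group means of 2627 ± 29.0 and 1849 ± 3.03 CPM (SD, n = 2 each). Actg1 went from 470 and 448 CPM to 332 and 339 CPM (-0.45 ± 0.03, 1.36-fold, adjusted p = 1.72e-14). The groups did not overlap for either actin, and the gap was several times the spread within a pair. The summed level of 25 mature oligodendrocyte markers moved the same way (22 lower, 1 higher, median -0.68). Of 18 precursor markers 15 were lower and 1 higher (median -0.23), with a summed level of 12194 and 12330 CPM for control IPs against 10533 and 10606 CPM for icKO IPs. The 1 that rose was Cspg4, the NG2 gene (0.08), and Pdgfra was not called (-0.03). Among those that fell were Olig1 (-0.55), Olig2 (-0.57) and Sox10 (-0.42). The part of either cell type in the actin values was not tested.

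Cfl1 and Pfn1 fell about as far as the actins they act on, again on the TMM scale and with the sign turned by scaling to mature oligodendrocyte markers. Cfl1 went from 420 and 432 CPM to 295 and 292 CPM (-0.53 ± 0.03, 1.45-fold lower, adjusted p = 1.84e-16). Pfn1 went from 59.1 and 58.4 CPM to 40.6 and 37.5 CPM (-0.58 ± 0.06, adjusted p = 4.86e-09). Their relatives fell less. Pfn2 went from 115 CPM in both control IPs to 97.1 and 91.3 CPM (-0.28 ± 0.05, adjusted p = 6.58e-06). Cfl2 went from 36.9 and 37.3 CPM to 32.5 and 27.9 CPM (-0.29 ± 0.08, adjusted p = 0.0027), and without icKO IP replicate 2 it was at -0.19 with an adjusted p of 0.0898, within a range of 1.90e-05 to 0.0898 over the alternatives. The icKO values of Cfl2 lay further apart than those of the other cofilin in proportion to their mean, with an SD of 3.23 CPM at a mean of 30.2 CPM.

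Tropomyosins spanned the whole range of the group. Tpm2 went from 18.2 and 17.8 CPM in the control IPs to 9.05 and 10.4 CPM in the icKO IPs (-0.88 ± 0.12, 1.84-fold lower, adjusted p = 2.18e-07), on 169 and 189 counts in the icKO. Tpm4 went from 62.9 and 65.4 CPM to 38.5 and 39.1 CPM (-0.72 ± 0.06, 1.65-fold lower, adjusted p = 1.95e-11). Scaled to mature oligodendrocyte markers, Tpm2 and Tpm4 stayed below 0 at -0.19 and -0.03 and were not called (adjusted p = 0.136 and 0.631, the highest of their ranges from 3.83e-12 and 2.12e-27). Tpm1 and Tpm3, by contrast, moved least of the group on the TMM scale, and both were above 0 when scaled to those markers (0.58 and 0.61). Tpm1 went from 183 and 188 CPM to 171 and 172 CPM (-0.11 ± 0.04, adjusted p = 0.0145), a call that was lost in DESeq2 (adjusted p = 0.0841), among genes of at least 5 CPM (0.0663), with the transcript length offset (0.11) and without control IP replicate 2 (0.132, the highest of 13 alternatives, the lowest being 4.58e-19 with the sign turned). Tpm3 was at 108 and 105 CPM in the control IPs and at 101 CPM in both icKO IPs (-0.08 ± 0.05, adjusted p = 0.17). Within the tropomyosin counts, Tpm4 went from 17.2% ± 0.353 to 12.1% ± 0.0593 (SD, n = 2 each) between control and icKO IPs and Tpm2 from 4.89% and 4.74% to 2.83% and 3.24%, while Tpm1 went from 49.5% ± 0.643 to 53.5% ± 0.0651. The exact 95% intervals of these shares cover counting error only, not the spread between pools. They did not overlap between genotypes for Tpm2, Tpm4 or Tpm1. The design of 2 against 2 cannot give an exact permutation p under 0.05.

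Markers of contractile vessel cells moved in the same direction as Tpm2 and Tpm4, as did the mature oligodendrocyte markers (median -0.68). Of 11 endothelium markers 3 were lower and 1 higher in the icKO IP on the TMM scale (median -0.33). All 11 pericyte markers were lower in the icKO IP on that scale (median -0.98). The summed level of the pericyte markers, 1965 and 1987 CPM in control IPs, compared with 1042 and 1057 CPM in icKO IPs. The inputs had 126 (control) and 123 CPM (icKO). Of 11 vascular smooth muscle markers, 9 were lower and 0 higher (median -0.90), with summed levels of 250 and 262 CPM for control IPs against 154 and 144 CPM for icKO IPs. Acta2, the smooth muscle actin and 1 of these markers, went from 21.6 and 24.9 CPM to 13.1 and 11.8 CPM (-0.90 ± 0.11, adjusted p = 3.06e-08). Of 3 tested muscle actins 2 were lower, Acta2 and Actg2. Actg2 was near the floor, with 19 and 15 counts in the control IPs, 7 and 2 in the icKO IPs and 0 in the icKO input. Of the pericyte and vascular smooth muscle markers only Pln had a library at 0. Their part in the values of Tpm2 and Tpm4 was not tested.

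In the inputs, where each genotype has 1 library and no test was made, the icKO to control difference was small for all 10 genes. It ran from -0.13 for Tpm4 to 0.22 for Tpm2 on the log2 scale, and the 95% interval, for counting error only, left out 0 for Tpm3 alone (0.10, from 0.03 to 0.17). Actb was at 0.02 (from -0.0046 to 0.04), Actg1 at 0.02, Cfl1 at 0.04 and Pfn1 at 0.06. The middle 95% of 9751 genes of at least 10 CPM in the inputs lay between -0.30 and 0.31. The genotype difference in the IP was below that in the input, by a test of the difference itself, for 7 of the 10, where 13.9% of 15936 genes were called in that direction and 9.67% in the other (23.6% in all). These were Actb (-0.52), Actg1 (-0.47), Tpm2 (-1.11), Tpm4 (-0.59), Cfl1 (-0.58), Pfn1 (-0.65) and Pfn2 (-0.24). Tpm1 (-0.09, adjusted p = 0.27), Tpm3 (-0.18, adjusted p = 0.0699) and Cfl2 (-0.18, adjusted p = 0.393) were not called on the TMM scale. With library totals, which put Tpm1 and Tpm3 past the threshold too, 1153 genes were called higher and 2965 lower, against 1541 and 2222 with TMM. This comparison uses the same IP libraries as the one before it.

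**Figure D4:**
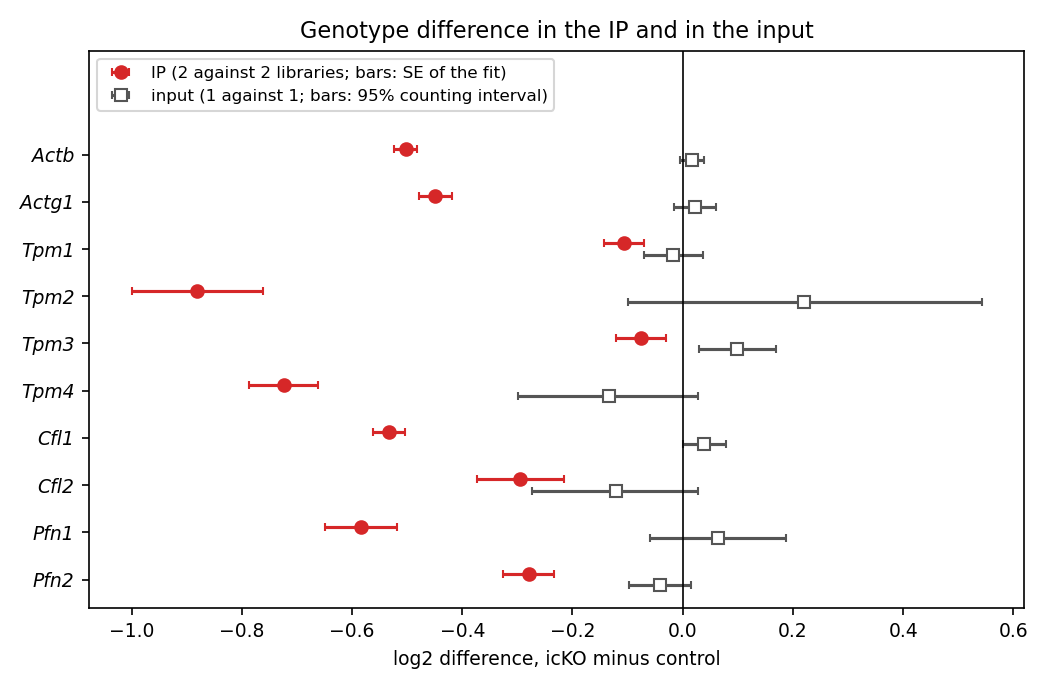
Log2 difference between icKO and control (horizontal axis) for each gene in the IP (red circles, bars are standard errors of the fit) and in the input (open squares, bars are 95% counting intervals, 1 library each). On the TMM scale the IP points lie between -0.88 and -0.08 and the input points between -0.13 and 0.22; scaling to mature oligodendrocyte markers puts the IP values above 0 for 8 of the 10 genes.

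The other genes of filament turnover did not all move with the 10. On the TMM scale, of 24 tested genes that bind monomers or belong to the cofilin cycle 10 were lower and 5 higher in the icKO IP, with a median of -0.07. Of all 15069 genes tested 25.2% were lower and 22.1% higher. The largest fall was that of Tmsb4x, the main monomer-sequestering thymosin, from 132 and 126 CPM to 68.4 and 65.2 CPM (-0.95 ± 0.05, adjusted p = 3.89e-17). Dstn, the destrin relative of the cofilins, went from 138 CPM in both control IPs to 104 and 93.3 CPM (-0.49 ± 0.05). Wdr1, which helps cofilin disassemble filaments, was at -0.33 ± 0.03 and Twf1, a twinfilin that binds monomers, at -0.28 ± 0.05. Regulators that switch cofilin by phosphate did not move in the same direction. Ssh2, a slingshot phosphatase that activates cofilin, went from 147 and 152 CPM to 210 CPM in both icKO IPs (0.49 ± 0.04, adjusted p = 3.08e-13), Ssh3 was at 0.33 and the kinase Limk2 at 0.33, while the kinase Tesk2 was lower (-0.58 ± 0.13, adjusted p = 0.000322). Ssh1 (0.15, adjusted p = 0.124), Limk1 (-0.05, adjusted p = 0.518) and Tesk1 (-0.09, adjusted p = 0.338) were not called. Wdr1, Twf1, Ssh1, Ssh3, Limk1, Limk2, Tesk1 and Tesk2 were named after their values were seen. Against input, with both genotypes in the fit, 14 of 25 genes of this list were lower and 9 higher, among them Dstn at -0.07 (adjusted p = 0.499), close to Cfl2, and the thymosin Tmsb10 at -2.23.

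Of 21 genes of the Arp2/3 complex, which starts branches on filaments, and of the WAVE complex that activates it, 14 were lower and 1 higher (median -0.13). The shares over all genes tested were 25.2% lower and 22.1% higher. The largest fall was that of the subunit Arpc4 (-0.42 ± 0.07), and the gene that rose was Actr3b (0.32 ± 0.07), which encodes another form of Arp3. Formins and Ena/VASP proteins, which take up profilin-bound actin, were split with 5 higher and 5 lower of 13 (median 0.05). They ran from Vasp (-0.59 ± 0.09) to the formin Fmn1 (0.39 ± 0.06), and these 13 are those found of 16 listed. Of 10 capping and severing genes 4 were lower and 3 higher (median 0.04). Capzb, the beta subunit of capping protein, was at -0.38 ± 0.05, Svil, the membrane-linked supervillin, at 0.45 ± 0.05, and Gsn, the severing protein gelsolin, at 0.08 ± 0.02 with 718 and 729 CPM in control and 761 CPM in both icKO IPs. Gsn had the highest log2 difference between IP and input of its list (3.14, 8.82-fold), where Arp2/3 and WAVE genes were mostly lower in the IP (17 of 21, with 3 higher). Over all genes tested 35.1% were lower and 34.8% higher in that fit. Of the SRF cofactors, Mkl2 was higher (0.27 ± 0.03, adjusted p = 9.49e-09) and Mkl1 was not called (0.05, adjusted p = 0.485).

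**Figure D5:**
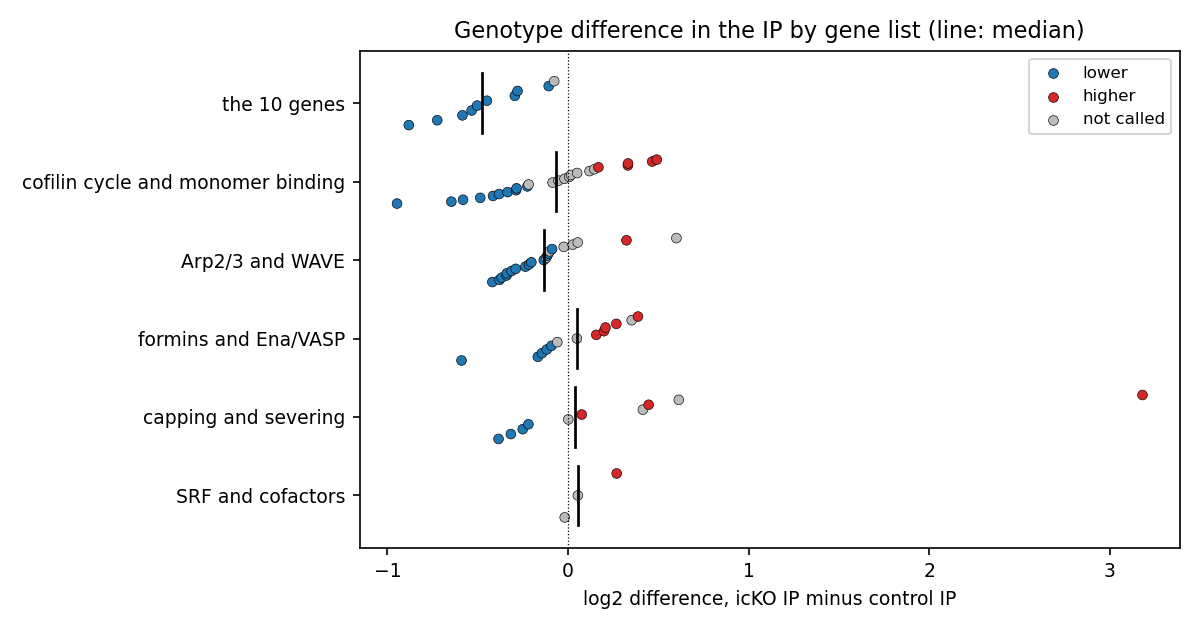
Log2 difference between icKO and control IP on the TMM scale (horizontal axis) for the 10 genes and for 5 lists of other actin genes; points are genes, coloured by whether the test called them lower (blue), higher (red) or not (grey), and vertical lines are list medians. The median of the 10 genes is -0.48 and those of the other lists lie between -0.13 and 0.05; the point beyond 3 is Scin, and scaling to mature oligodendrocyte markers moves the median of all genes to 0.69.

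Transcript length moved with the genotype difference over all genes. The median log2 difference in the IP was -0.19 for 977 genes whose principal transcript, like that of Pfn1, has at most 1000 bases. It was -0.13 for 2825 genes of over 1000 and up to 2000 bases, -0.02 for 3296 genes of up to 3000 bases, and 0.15 for 1826 genes over 6000 bases. Across 14492 genes, which are not independent replicates, the Spearman correlation of length with the difference was 0.20. The 10 genes have principal transcripts of 861 (Pfn1) to 2940 bases (Cfl2). With an offset for the trend with length, 8 of the 10 were called lower, with a median of -0.42. Of all 14492 genes tested with that offset 3877 were called lower and 2561 higher, with a median of -0.03. Actb was at -0.47, and the value that moved furthest was Pfn1, to -0.43.

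By the root mean square difference of centred log2 CPM over the 6 libraries, the gene most like Actb among 10085 others of at least 10 CPM was Tmed5 (0.02), and that most like Actg1 was Tex264 (0.03). For Cfl1 it was Mrfap1 (0.02), for Pfn1 Stmn4 (0.04), for Pfn2 Ghitm (0.02), for Cfl2 Sdc2 (0.02), for Tpm1 Tef (0.02), for Tpm3 Asic2 (0.0089) and for Tpm4 Pou3f1 (0.03). The gene most like Tpm2 was Axl, at a greater distance (0.06). Among the 10 themselves, the pairs most alike were Tpm1 with Tpm3 (0.05) and Actg1 with Cfl1 (0.05).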

How the data were processed

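RNA from 2 inputs and 4 IP libraries was sequenced after a stranded total RNA kit for low input (Takara SMARTer, Pico), per the labels' protocols. The deposited table holds raw read counts per gene symbol. The submitters' processing notes name Trimmomatic 0.39, STAR 2.7.10b and mm10; for the counter, annotation, strand setting and duplicates nothing is given in the sources used here. Groups came from the titles (icKO IP replicate 1 reads cKO there, and AnkG icKO under genotype). Of 24421 genes, 10 without a value in the inputs were left out.

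Counts were tested with edgeR 4.0.16 in R 4.3.3 (TMM, filterByExpr, quasi-likelihood F test, two-sided, Benjamini-Hochberg adjusted p under 0.05 over all genes tested). The genotypes were compared over the 4 IP libraries (2 residual degrees of freedom), IP with input over 6 libraries with genotype as a term, and IP with input within genotypes and the difference of differences in a model of 4 groups. The fits were run on simulated counts with known changes. All simulated libraries had the same spread, so these runs cannot show how a lone input varies. Printed CPM carry TMM factors of all 6 libraries. Input ratios used a prior count of 2. Alternatives were DESeq2 1.42.0 as a test and as size factors, library totals, marker scalings, filters, a length offset (loess, span 0.5), a replicate block and leaving out each library. The 10 genes and the lists were chosen with earlier results of these data known. The 10 were always named; of other lists, the largest rise and fall of at least 10 CPM, with Dstn, Gsn, Srf and its cofactors; others are said to be later choices or are given beside these.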

Additional observations from a re-analysis of the deposited data

Results flagged for a closer look

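The difference between IP and input was not the same in the genotypes for 7 of the 10 genes, by a test of the difference in a model of 4 groups whose spread comes from the IP pairs. The difference in the icKO mice minus that in the control mice was -0.52 on the log2 scale for Actb (adjusted p = 5.36e-13), -0.47 for Actg1 (1.17e-08), -1.11 for Tpm2 (6.91e-04), -0.59 for Tpm4 (5.72e-04), -0.58 for Cfl1 (1.59e-10), -0.65 for Pfn1 (4.73e-05) and -0.24 for Pfn2 (0.00802) (quasi-likelihood F test of edgeR, Benjamini-Hochberg). Over all genes 23.6% were called in this test. Pfn1 was higher in the IP than in the input in control mice (0.25) and lower in icKO mice (-0.40).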

How the results depend on the processing

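Of 519 values of single genes under alternatives 492 kept their direction and their side of the threshold, 10 lost a call, 5 gained one and 12 turned sign. Scaled to mature oligodendrocyte markers, 7 of the 10 genes were higher and 0 lower in the icKO IP. Over all 15069 genes tested 12747 were higher and 112 lower with that scaling. Actb was at 0.19, Actg1 at 0.24, Tpm1 at 0.58 and Tpm3 at 0.61. Cfl1 was at 0.16, Cfl2 at 0.40, Pfn1 at 0.11 and Pfn2 at 0.41, and the median of the 10 was 0.21. Between IP and input, Cfl2 turned to 0.024 without icKO IP replicate 2 and ran from -0.12 to 0.056 over the libraries left out (0.056 without the icKO input). Pfn1 ran from -0.41 to 0.25 over them (0.25 without the icKO input) and was at 0.32 with the length offset. In the other scalings, filters and DESeq2, the counts of called genes among the 10 stayed within 1.5 times. Leaving out a library in turn, 8 to 9 of the 10 were lower between genotypes in the IP (0 higher), 5 to 6 lower and 2 to 4 higher against input, and 7 lower in the difference between them, with 5 lower and 4 higher in control and 6 lower and 2 higher in icKO mice against input. Over all genes DESeq2 called 1829 in the difference of differences against 3763 in edgeR, with Pfn2 (adjusted p = 0.0812, range 5.48e-04 to 0.0812) no longer called and no adjusted p for Tpm2. The replicate numbers carry no stated pairing, and same-numbered IP libraries did not deviate together (correlation -0.0029); with a replicate block 9 of the 10 were lower and 0 higher, and 7277 genes were called instead of 7119, and it changed no call among the 10. Without an input, the fits within a genotype and of the difference of differences give no value. Depth limits Tpm2 most, with 157 and 171 counts in the inputs.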

Other observations

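Lrrc58, a leucine-rich repeat gene, was looked at after its values were seen, because its annotated transcript holds 179 of the 50-base words of the Actb mRNA, more than any other gene. In control mice its counts were 13.6% of those of Actb in the input and 13.5% in both IPs, and in icKO mice 15.0% in the input and 15.0% and 15.2% in the IPs. Its genotype difference in the IP was -0.34 (adjusted p = 1.99e-11, quasi-likelihood F test of edgeR, Benjamini-Hochberg), against -0.50 for Actb, and its difference from input in control mice was 0.70 against 0.71. Whether reads of these genes are shared was not tested.

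Scin, which encodes the actin-severing scinderin and was named after its values were seen, had 16 counts in the input of control mice and 12 and 9 in their IPs, and 17 counts in the input of icKO mice and 91 and 66 in their IPs. Its log2 difference between genotypes in the IP was 3.18 ± 0.35 (SE, adjusted p = 4.55e-09, same test). These levels are low, at most 4.88 CPM, whereas Gsn, a severing gene at 718 to 761 CPM in the IPs, differed by 0.08. Cotl1, a coactosin that binds filaments, was at -0.65 in the IP between genotypes (adjusted p = 1.27e-08), and was also named after its values were seen.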
